A study of Mus musculus with 23 samples.

Results

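The change from 3 to 6 months of age was measured in striatal tissue of mutant mice labelled as a double knockout of Ezh1 and Ezh2, using the 6 mutant arrays at 6 months against the 3 mutant arrays at 3 months out of 23 arrays in all. Every probe set that the deposited annotation pairs with exactly 1 gene symbol was used, which is 38143 of 45101 probe sets and 20694 genes. The mutants carry the genotype label Ezh1; Ezh2 Camk Cre and are called dKO (double knockout). The label does not say which Camk promoter drives Cre, nor which parts of the genes are deleted or whether Ezh1 is missing from every cell. Camk promoters used for this purpose act in forebrain neurons, so glia and vessel cells would keep a gene that only Cre removes. The wild-type (WT) controls, 4 arrays at 3 months and 4 at 6 months, are described as littermates matched for age and sex. By Xist and Ddx3y, the arrays read as female were 2 of 3 (dKO, 3 months), 4 of 6 (dKO, 6 months), 2 of 4 (WT, 3 months) and 3 of 4 (WT, 6 months), so the sexes are mixed and their shares differ between genotypes. Further arrays at 6 weeks, 3 WT and 3 dKO, enter only the estimate of the spread between arrays and the choice among a gene's probe sets. Values are centred RMA log2 values, set to a centre of their own for each probe set (87.9% of probe sets read exactly 0 on some array), so they show differences between arrays and not how abundant a transcript is.

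EZH1 and EZH2 are the 2 enzymes that can serve Polycomb repressive complex 2 (PRC2) as its histone methyltransferase. The complex methylates histone H3 on lysine 27 and keeps developmental regulator genes silent in differentiated cells. The Hox genes, which set position along the body axis and are normally off in the forebrain, are classic PRC2 targets. Most neurons of the striatum are medium spiny neurons, GABAergic projection cells that carry either the dopamine receptor DRD1 or DRD2. Promoters of 4 genes on which the results turn are printed here, 2 of genes that rose most in dKO and 2 of genes that fell with a called difference from WT, from RefSeq windows of build GRCm38.p6 that run from 250 bases before to 50 bases after the annotated start. They are written 5′ to 3′ on the gene's strand, with every CpG dinucleotide in capitals.
Hoxd10, chr2:74691641-74691940, plus strand: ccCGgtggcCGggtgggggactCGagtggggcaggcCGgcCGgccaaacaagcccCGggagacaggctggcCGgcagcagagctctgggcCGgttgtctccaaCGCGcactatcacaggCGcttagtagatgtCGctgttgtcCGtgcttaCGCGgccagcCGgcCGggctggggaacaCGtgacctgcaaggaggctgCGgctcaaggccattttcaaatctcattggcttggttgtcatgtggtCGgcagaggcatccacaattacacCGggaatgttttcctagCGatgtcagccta
Hoxa9, chr6:52227321-52227620, minus strand: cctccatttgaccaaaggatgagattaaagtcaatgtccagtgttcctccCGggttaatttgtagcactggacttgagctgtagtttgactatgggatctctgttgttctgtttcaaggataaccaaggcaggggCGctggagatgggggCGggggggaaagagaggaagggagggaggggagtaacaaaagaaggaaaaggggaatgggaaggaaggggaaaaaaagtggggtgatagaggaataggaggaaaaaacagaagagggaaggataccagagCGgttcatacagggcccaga
Gpx6, chr13:21311953-21312252, plus strand: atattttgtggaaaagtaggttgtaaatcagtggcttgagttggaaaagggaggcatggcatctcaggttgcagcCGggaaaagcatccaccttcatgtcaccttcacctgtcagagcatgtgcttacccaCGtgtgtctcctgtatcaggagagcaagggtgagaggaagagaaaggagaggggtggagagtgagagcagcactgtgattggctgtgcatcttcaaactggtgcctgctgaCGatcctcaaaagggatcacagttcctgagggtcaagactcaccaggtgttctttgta
Gkn3, chr6:87388886-87389185, minus strand: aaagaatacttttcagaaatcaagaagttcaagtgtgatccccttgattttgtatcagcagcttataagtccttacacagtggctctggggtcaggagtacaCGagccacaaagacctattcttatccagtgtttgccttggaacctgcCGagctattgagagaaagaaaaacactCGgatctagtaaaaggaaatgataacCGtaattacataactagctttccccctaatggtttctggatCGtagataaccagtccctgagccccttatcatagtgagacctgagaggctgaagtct
The Hoxd10 window holds 22 CpG dinucleotides, and 23.1% of the 32851 windows in the table hold as many or more. The Hoxa9 window holds 4, which 68.6% of windows reach. The Gpx6 window holds 3 and the Gkn3 window 5, which 76.7% and 62.0% of windows reach. So the 2 Hox windows lie on different sides of the median of 7 per window, and both windows of genes that fell lie below it. Windows were found for 20 of the 35 measured Hox genes, too few for a statement on the family.

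The targeted genes were checked first. The probe set used for Ezh1 read -0.46, -0.09 and -0.76 on the dKO arrays at 3 months and from -0.80 to 0.00 (median -0.55) at 6 months. On the WT arrays it read 1.39 to 1.72 at 3 months and 1.58 to 1.73 at 6 months, so no dKO array reached a WT array at either age. The Ezh1 change from 3 to 6 months in dKO was -0.01 ± 0.30 on the log2 scale (standard error here and below, adjusted p = 0.983). Ezh2 separated the genotypes less: it read -0.24 to 0.00 in dKO and 0.10 to 0.46 in WT at 3 months, and at 6 months -0.70 to -0.10 and -0.17 to 0.13, which overlap. Its dKO minus WT difference was not called at 3 months (-0.45 ± 0.19, adjusted p = 0.557) or 6 months (-0.43 ± 0.16, adjusted p = 0.0643). The change of Ezh2 with age was -0.24 ± 0.17 in dKO and -0.26 ± 0.17 in WT, neither of them called. A probe set outside a deleted segment would not show the deletion. One dKO array at 6 weeks, replicate 3, read 1.47 for Ezh1 against -0.37 and -0.62 on the others. It touches the results only through the pooled spread and the choice of probe sets. Leaving out the 6-week arrays, with the same probe sets kept, gave 2951 higher and 3280 lower genes in dKO.

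Many genes moved with age in dKO. At an adjusted p under 0.05 (limma with Benjamini-Hochberg adjustment over 20694 genes), 3498 genes were higher at 6 months (16.9%) and 3641 were lower (17.6%). Of these, 180 higher and 297 lower genes moved by at least 2-fold. In WT, 2156 genes were higher (10.4%) and 2440 lower (11.8%), with 68 and 228 past 2-fold. Between these ages the WT and dKO comparisons share no array. Of the higher dKO calls, 1140 were also higher calls in WT, which is 32.6% of the dKO list and 52.9% of the WT list. Of the lower dKO calls, 1606 were lower calls in WT, 44.1% of the dKO list and 65.8% of the WT list. Across genes, which are not independent replicates, the dKO and WT changes had a Pearson correlation of 0.63. A test of the difference, the dKO change minus the WT change, called 151 genes higher (0.73%) and 184 lower (0.889%). Both counts rest on few arrays: without dKO 3-month replicate 2 they were 76 and 42, and without dKO 6-month replicate 2 they were 268 and 412. Leaving out dKO 3-month replicate 1, dKO 6-month replicate 5 or 6, WT 3-month replicate 2, 3 or 4, or WT 6-month replicate 2, 3 or 4 also moved 1 of the counts by more than 1.5-fold. The WT count of higher genes fell to between 1313 and 1413 without WT 3-month replicate 2 or 4 or WT 6-month replicate 2, 3 or 4, and the WT count of lower genes to 1618 without WT 3-month replicate 2. All arrays of 1 age and genotype may also share an unrecorded batch, which cannot be told apart from age.

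**Figure D1:**
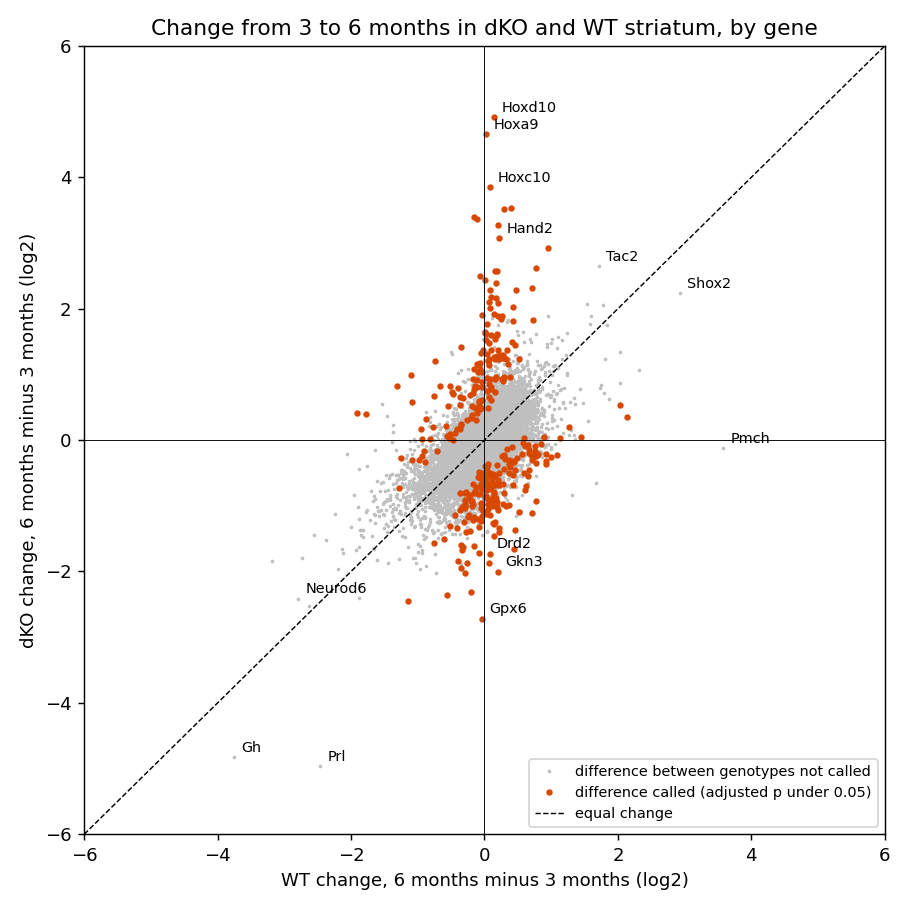
Each point is a gene, with its WT change from 3 to 6 months on the x axis and its dKO change on the y axis, both in log2 units. Genes with a called difference are orange and the dashed line marks equal change; Hoxd10, Hoxa9 and Hoxc10 stand at the top near a WT change of 0, Gpx6 at the bottom near 0, and Gh and Prl lie low for both genotypes.

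The largest rise in dKO was that of Hoxd10, a posterior homeobox gene of the Hoxd cluster. Its 3 arrays at 3 months read 0.43, 0.10 and 0.07, and the 6 at 6 months ran from 4.55 through a median of 5.23 to 5.57. The groups lie more than 4 log2 units apart. The change was 4.91 ± 0.18 (30.1-fold, adjusted p = 2.09e-14) against 0.15 ± 0.18 in WT, and the difference was 4.76 ± 0.25 (adjusted p = 5.29e-11). Hoxa9 read 0.04, -0.09 and 0.00 at 3 months and 4.26, 4.70 and 4.94 (lowest, median, highest) at 6 months. It rose by 4.66 ± 0.15 in dKO (adjusted p = 2.73e-15), and its WT value of 0.03 ± 0.15 was not called. Another probe set of Hoxa9 moved less, so that the mean of its probe sets gave 2.78 and the probe set with the largest spread in WT 0.90, where the difference from WT was not called. Hoxc10, of the Hoxc cluster, rose by 3.85 ± 0.17 from 0.58, 0.86 and 0.45 to 4.16, 4.46 and 4.87. The largest rises and falls were chosen among genes whose dKO arrays do not overlap between ages, so that separation is set by the choice. Over all genes, 12.9% had all 6 arrays higher at 6 months and 13% all lower.

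Some Hox genes already stood above WT at 3 months. Hoxc8 read 1.65, 1.70 and 1.40 in dKO at 3 months against -0.81 to -0.30 in WT, and rose to 4.68, 4.94 and 5.28 at 6 months. The dKO minus WT difference in Hoxc8 was 2.09 ± 0.22 at 3 months (adjusted p = 1.39e-05) and 5.57 ± 0.18 at 6 months, beside 80 genes called higher (0.387%) and 6 lower (0.029%) at 3 months, and 1874 higher (9.06%) and 1853 lower (8.95%) at 6 months. Hoxd8 was 1.63 ± 0.22 and then 4.04 ± 0.18 above WT, and Hoxc10 0.99 ± 0.18 and then 4.75 ± 0.15. After quantile normalization the Hoxd8 change with age in dKO was 0.95 instead of 2.57. Its dKO change minus its WT change was then not called. Hoxd10 and Hoxa9 were not called at 3 months, at 0.38 ± 0.19 and 0.07 ± 0.16 above WT. These differences share the dKO arrays with the change over time and are given only as its end points.

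Of 35 measured Hox genes, 31 (88.57%) were called higher in dKO from 3 to 6 months and 0 lower, beside 16.9% and 17.6% of all genes. The median change was 1.05, against 0.04 over all genes. In WT, 0 of the 35 were called in either direction by limma and the median was 0.09. Over all genes 10.4% were higher and 11.8% lower in WT. The difference between genotypes was called higher for 23 of the 35, beside 0.73% of all genes. All 10 measured genes of the Hoxa cluster and all 7 of the Hoxc cluster rose in dKO, from 0.62 (Hoxa2) to 4.66 (Hoxa9) and from 0.81 (Hoxc4) to 3.85 (Hoxc10). In the Hoxb cluster 7 of 9 rose, led by Hoxb5 at 1.59 and Hoxb3 at 1.32, while Hoxb1 and Hoxb4 had changes of 0.08 and 0.06 that were not called. In the Hoxd cluster 7 of 9 rose, and Hoxd1 and Hoxd12, at 0.03 and 0.10, were not called. On single arrays the median over Hox genes was 0.01 to 0.05 in dKO at 3 months and 0.93 to 1.40 at 6 months. The WT arrays had medians from -0.26 to -0.15 at 3 months and from -0.20 to 0.00 at 6 months, so every dKO array of either age stood above every WT array, those of 3 months by little. For the Hoxb cluster 6 differences from WT were called, and 2 without dKO 3-month replicate 2 or after quantile normalization. For the Hoxc cluster 5 were called, and 3 after quantile normalization. Without single arrays of either genotype 2 to 3 were called (dKO 3-month replicates 1 and 2, WT 3-month replicates 2 and 3, WT 6-month replicates 2 and 4). With the probe set that varied most in WT, the differences of Hoxa10, Hoxb3 and Hoxc5 were not called. That probe set of Hoxa10 changed by 0.08 in dKO, which was not called.

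**Figure D2:**
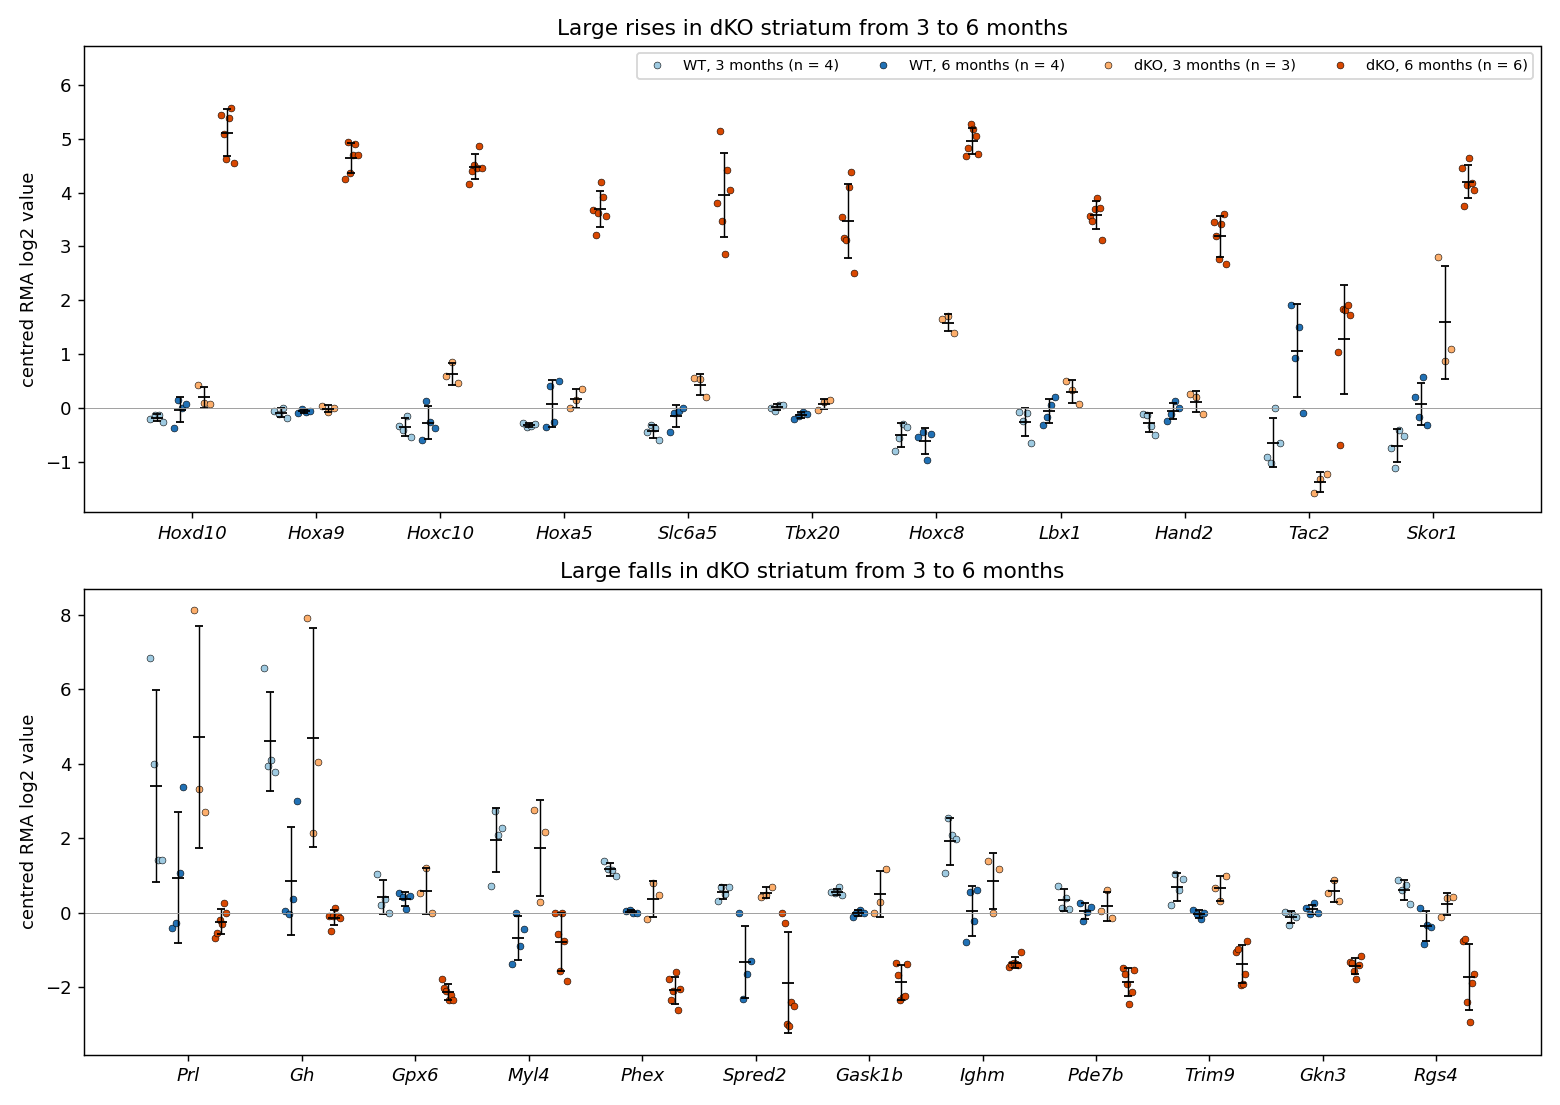
Centred RMA log2 values of every WT and dKO array at 3 and 6 months for large rises (top) and the 12 largest falls (bottom) in dKO. Points are arrays and bars the mean ± SD; for the Hox genes in the top panel the dKO arrays at 6 months stand above all others, while Prl, Gh and Myl4 in the bottom panel have scattered values at 3 months in both genotypes.

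Developmental transcription factors outside the Hox clusters rose widely as well. Of 150 measured, 97 (64.67%) were higher in dKO at 6 months than at 3 months and 2 (1.3%) were lower. This stands beside 16.9% and 17.6% of all genes, and the median change was 0.55. In WT 30 were higher and 5 lower, with a median of 0.16, beside 10.4% and 11.8% of all genes. The difference between genotypes was called higher for 44 and lower for 0, beside 0.73% and 0.889% of all genes. Of the 44, 2 (Bhlhe22 and Lhx2) fell in WT. After quantile normalization 21 were called higher. The largest rise was that of Tbx20, a T-box factor of heart and motor neuron development, which read -0.03, 0.11 and 0.14 at 3 months and 2.51, 3.35 and 4.38 at 6 months. Its change of 3.40 ± 0.25 (adjusted p = 4.23e-09) was 1.45 as the mean of its probe sets and 0.78 with the probe set that varied most in WT, where the difference from WT was not called. Hand2, a bHLH factor of heart and sympathetic neurons, rose by 3.07 ± 0.16. The call for Hand2 was lost with the probe set that varied most in WT, which gave 0.03. Lbx1, a homeobox factor of dorsal spinal cord and migrating muscle precursors, rose by 3.27 ± 0.15 against 0.20 ± 0.15 in WT.

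Families of these factors moved to different degrees. Over all genes 16.9% rose and 17.6% fell in dKO, 10.4% rose and 11.8% fell in WT, and 0.73% had a difference called higher. All 6 Gata factors rose, with a median of 1.45, and 3 had a called difference from WT, among them Gata2 at 1.90 and Gata6 at 1.62. Of 8 T-box factors 7 rose, and of 11 LIM homeobox factors 9 rose, among them Lhx5 by 2.08. In WT 5 of the 11 LIM homeobox factors rose and 1 fell, and 6 of the 11 had a called difference from WT. All 3 Pou4f factors, which specify sensory neurons, rose by 0.39 to 2.0. Of 6 Iroquois factors 5 rose in dKO, but 4 also rose in WT and 0 of the 6 differences were called. Of 6 Dlx genes, the homeobox factors of forebrain GABAergic neurons, 1 rose and Dlx6 fell by 0.80. Pou3f4, another factor of the developing striatum, fell by 0.61. Neither the 97 higher calls nor the 31 Hox calls moved by more than 1.5-fold when any single array was left out. The 30 higher calls in WT became 16 to 18 without WT 3-month replicate 2 or 4 or WT 6-month replicate 3, and the 5 lower calls 2 to 3 without WT 3-month replicate 2 or 3 or WT 6-month replicate 2 or 3.

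Several top genes outside these lists rose too. Slc6a5, the neuronal glycine transporter of brainstem and spinal cord neurons, read 0.55, 0.54 and 0.20 at 3 months and 2.86, 3.93 and 5.14 at 6 months. It rose by 3.53 ± 0.30 in dKO against 0.29 ± 0.30 in WT (difference 3.24 ± 0.42, adjusted p = 0.000106), and by 1.93 in dKO as the mean of its 2 probe sets. Skor1, a corepressor of spinal cord neurons, rose by 2.61 ± 0.29, or 1.38 as the mean of its probe sets, and it stood above WT at 3 months by 2.29 ± 0.32. Tac2, which encodes neurokinin B, rose in dKO by 2.65 ± 0.51 and in WT by 1.71 ± 0.51, and its difference of 0.94 ± 0.72 was not called (adjusted p = 0.60). One dKO array at 6 months stayed at -0.69 for Tac2, where the median was 1.77, still above the 3-month arrays at -1.58, -1.32 and -1.22.

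Medium spiny neuron genes fell in dKO. Of 49 measured, 38 (77.55%) were lower at 6 months and 1 was higher (Isl1, 0.57), beside 17.6% and 16.9% of all genes. The median change was -0.79, while in WT 6 were lower and 3 higher with a median of 0.08. Over all genes 11.8% were lower and 10.4% higher in WT. The list was drawn up with earlier results of these arrays known, so its direction is not independent evidence. The difference from WT was called lower for 18 of the 49, beside 0.889% of all genes. In a whole tissue, fewer cells of a type and less RNA per cell cannot be told apart. On single arrays the list median was -0.08 to 0.33 in dKO at 3 months and -0.75 to -0.45 at 6 months, without overlap. The WT medians were -0.09 to 0.37 at 3 months and 0.03 to 0.19 at 6 months. The 38 lower calls stayed within 1.5-fold when any array was left out. The 18 differences became 6 without dKO 3-month replicate 2. They became 8 to 11 without dKO 3-month replicate 1, dKO 6-month replicate 5, WT 3-month replicates 2 or 4, or WT 6-month replicates 3 or 4. With the replicate number as a block 8 were called, and after quantile normalization 10. The 6 lower calls in WT became 2 to 3 without WT 3-month replicate 1, 2 or 3 or WT 6-month replicate 2, 3 or 4.

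The receptors that define the 2 output pathways were among the genes that fell. Drd2, the dopamine receptor of the indirect pathway, read 0.10, 0.54 and -0.27 in dKO at 3 months and -2.17, -1.45 and -1.22 (lowest, median, highest) at 6 months. The groups do not overlap, and all dKO arrays at 3 months lie near the WT range of -0.12 to 0.51. The change of -1.73 ± 0.24 left 3.32-fold less signal (adjusted p = 2.13e-05), against 0.08 ± 0.24 in WT, a difference of -1.81 ± 0.33 (adjusted p = 0.00598). Adora2a, the adenosine receptor of the same cells, fell by 1.72 ± 0.22 against -0.09 ± 0.22 in WT. Its difference of -1.63 ± 0.32 was not called without dKO 3-month replicate 2. Drd1, the receptor of the direct pathway, fell by 1.13 ± 0.20 in dKO, its WT value was 0.04 ± 0.20, and the difference was called too. Gpr6, an orphan receptor of indirect pathway cells, fell by 1.28, and Chrm4, the muscarinic receptor of direct pathway cells, by 1.37, beside WT values of 0.15 and -0.53.

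Gpx6, a glutathione peroxidase, had the largest fall of the list. It read 0.53, 1.21 and 0.00 at 3 months and -2.34, -2.16 and -1.79 at 6 months, a change of -2.72 ± 0.28 (6.58-fold lower, adjusted p = 6.51e-07). In WT the change was -0.03 ± 0.28, and the difference of -2.69 ± 0.39 (adjusted p = 0.000446) was called in each of the 39 alternatives tried. Pde7b, a cAMP phosphodiesterase, fell by 2.03 ± 0.22 against -0.29 ± 0.22 in WT, with a difference of -1.74 ± 0.31 (adjusted p = 0.00456). Actn2, an actin-binding protein of dendritic spines, fell by 1.95 ± 0.21, and Ido1, an enzyme of tryptophan breakdown, by 1.87 ± 0.24. Both had called differences from WT, of -1.60 ± 0.30 and -1.94 ± 0.34. Pde10a, the main phosphodiesterase of these neurons, fell by 1.67 ± 0.33 in dKO, or 0.85 as the mean of its probe sets, and by 0.94 ± 0.33 in WT, and its difference of -0.73 ± 0.46 was not called.

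Transcription factors of the list fell by less: Foxp1 by 0.97 and Bcl11b by 0.79, of which Bcl11b had a called difference from WT. The neuropeptide Tac1 fell by 0.48, while Penk and Pdyn, the opioid peptide precursors, had values of -0.20 and -0.28 that were not called. Ppp1r1b, which encodes DARPP-32, had -0.16 and Rgs9 -0.13, neither of them called. So within 1 cell type's list the changes ran from -2.72 to 0.57, and 10 of the 49 members were not called.

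**Figure D3:**
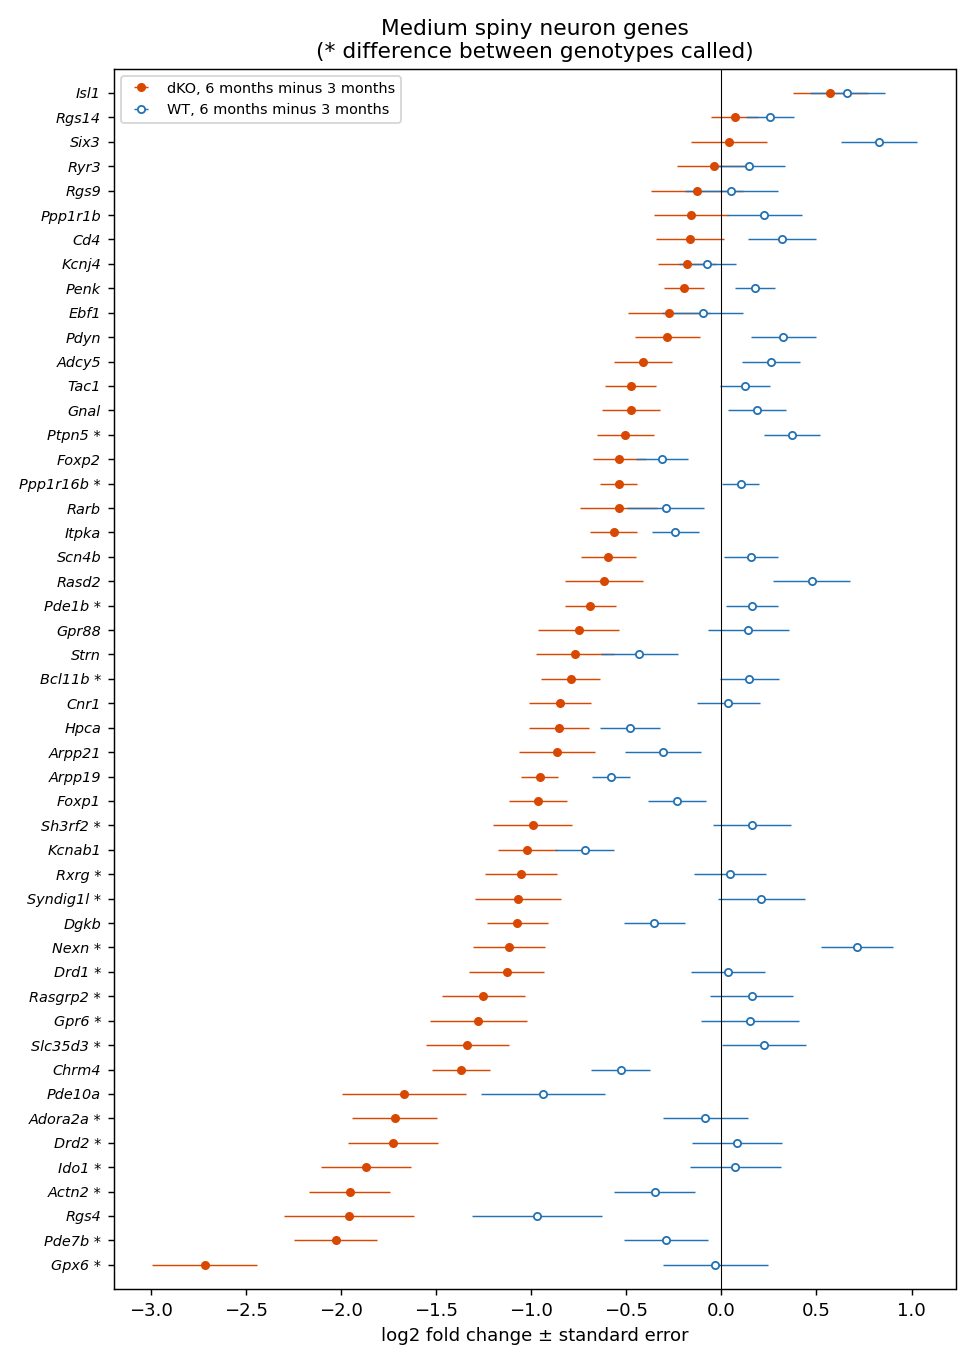
Log2 fold change ± standard error from 3 to 6 months of each medium spiny neuron gene, in dKO (filled) and WT (open), ordered by the dKO change. Most dKO points lie left of 0 and most WT points near or right of it; an asterisk marks the 18 genes with a called difference between genotypes.

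Lists of other neuronal genes held falls in both genotypes, beside 17.6% of all genes lower in dKO and 11.8% in WT. Of 40 dopamine receptor and cAMP signalling genes, 18 fell and 6 rose in dKO, and 12 fell and 5 rose in WT. The 5 called differences of that list, all lower, are of Drd1, Drd2, Adora2a, Pde1b and Pde7b, which the medium spiny neuron list holds as well, and 2 were called without dKO 3-month replicate 2 and 3 without dKO 3-month replicate 1, WT 3-month replicate 2 or 4, or WT 6-month replicate 3 or 4. The 5 rises in WT became 2 to 3 without WT 3-month replicate 3 or WT 6-month replicate 2, 3 or 4. Gnas, the widely expressed stimulatory G protein, rose by 0.98 in dKO and 0.51 in WT. Of 47 potassium channel genes 25 fell and 4 rose in dKO, against 20 and 2 in WT, and 0 differences were called. Kcnv1, a modifier subunit, fell by 1.87 ± 0.19 in dKO and 1.02 ± 0.19 in WT. Of 39 glutamate and GABA receptor subunits 15 fell and 3 rose in dKO, against 11 and 3 in WT, and Gabrd, a subunit of extrasynaptic GABA receptors, had the single called difference (-1.04 in dKO, -0.29 in WT). The 11 falls in WT became 7 without WT 6-month replicate 3. Of 44 synaptic genes 18 fell in dKO and 17 in WT, and Shank3, a postsynaptic scaffold, had the single called difference (-0.33 in dKO, 0.41 in WT).

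Cortical marker genes moved with age in both genotypes, and their values stand here beside the neuronal genes. Of 20 markers of cortical pyramidal neurons, 5 fell in dKO (25.0%, median -0.78) and 15 in WT (median -1.65), beside 17.6% and 11.8% of all genes. For this list 0 differences were called. The array medians of this list overlapped between ages in dKO, at -0.04 to 0.82 and -0.85 to 0.23, and not in WT, at 0.25 to 0.94 and -1.26 to -0.13. Of 19 markers of thalamic and pallidal neurons 5 rose in dKO and 10 in WT, with array medians in dKO of -0.15 to 0.00 and 0.00 to 0.34. The WT medians of this list were -0.41 to -0.25 at 3 months and 0.05 to 0.70 at 6 months, without overlap. A fit with this median as a covariate therefore also takes up change with age. Of these 19 genes, 7 are also in the list of developmental transcription factors. With the cortical median as a covariate, 117 differences between genotypes were called higher and 95 lower. With the thalamic median as a covariate there were 66 and 20; 2 medium spiny neuron differences were then called instead of 18, and 21 developmental transcription factor differences instead of 44. The 5 cortical calls in dKO became 2 without dKO 3-month replicate 1 or 3 or dKO 6-month replicate 3 or 6, 8 without dKO 6-month replicate 1 and 10 without dKO 6-week replicate 1. The 10 thalamic calls in WT became 5 to 6 without WT 3-month replicate 2, 3 or 4 or WT 6-month replicate 3. The part of these markers in the results was not tested.

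**Figure D4:**
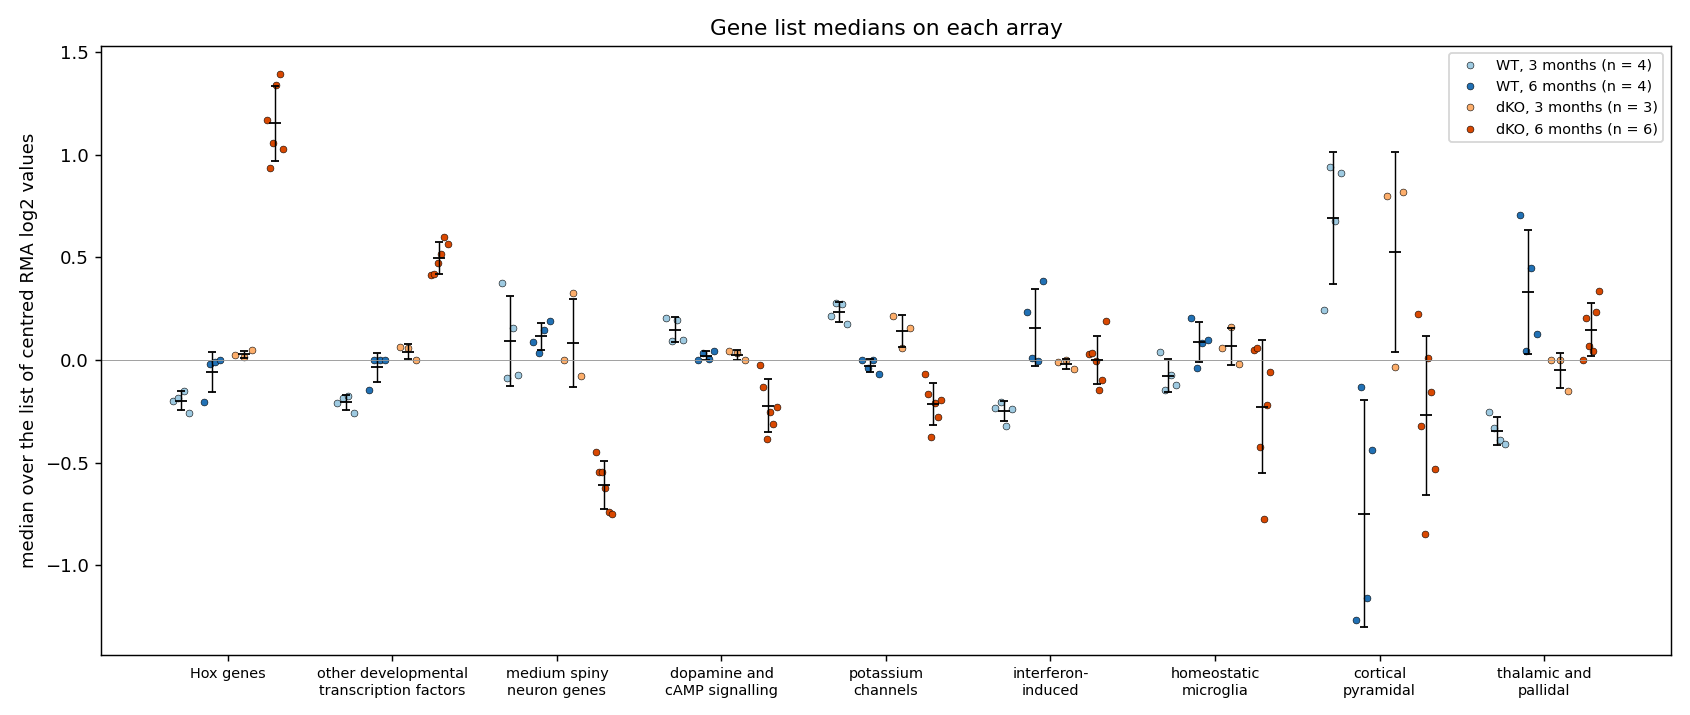
Median of each gene list on each array (points), with mean ± SD over arrays (bars), for WT and dKO at 3 and 6 months, in centred RMA log2 units. The Hox and developmental factor medians are highest and the medium spiny neuron medians lowest on the dKO arrays at 6 months, while the cortical medians are lower at 6 months in WT and overlap between ages in dKO.

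The 2 largest falls by size were pituitary hormone genes. Prl, prolactin, read 8.13, 3.33 and 2.69 in dKO at 3 months and -0.67 to 0.25 at 6 months, a change of -4.96 ± 1.05 (adjusted p = 0.00129). Gh, growth hormone, read 7.90, 2.14 and 4.05 and then -0.51 to 0.11, a change of -4.83 ± 0.82 (adjusted p = 0.000191). In WT, Gh read 3.78 to 6.58 at 3 months and -0.05 to 3.01 at 6 months (-3.76 ± 0.82, adjusted p = 0.00333), and the Prl value of -2.46 ± 1.05 was not called. Neither difference between genotypes was called, at -2.50 ± 1.49 for Prl and -1.07 ± 1.16 for Gh. Myl4, Spred2 and Ighm, 3 others of the 12 largest falls, also fell in WT. Myl4, a myosin light chain, fell by 2.53 ± 0.67 and 2.63 ± 0.67, and lost its dKO call without dKO 3-month replicate 1. Spred2, an inhibitor of Ras signalling, fell by 2.41 ± 0.54, or 0.77 as the mean of its probe sets, and Ighm, an immunoglobulin heavy chain, by 2.20 ± 0.41, or 0.30.

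Other large falls differed from WT. Gkn3, a gastrokine gene, read 0.52, 0.88 and 0.30 at 3 months and -1.79, -1.39 and -1.15 at 6 months. The Gkn3 change was -2.0 ± 0.15 (adjusted p = 4.52e-09) against 0.21 ± 0.15 in WT, and the difference of -2.21 ± 0.21 (adjusted p = 7.79e-07) was called in all 39 alternatives. Gask1b changed by -2.37 ± 0.22, a difference from WT of -1.80 ± 0.31 (adjusted p = 0.00323). Phex, an endopeptidase gene on the X chromosome, fell by 2.45 ± 0.22 in dKO and 1.14 ± 0.22 in WT, with a dKO value of -1.21 as the mean of its probe sets. The Phex difference of -1.30 ± 0.31 was not called without WT 3-month replicates 2, 3 or 4, WT 6-month replicates 2, 3 or 4, or dKO 3-month replicates 2 or 3. Trim9, a brain ubiquitin ligase, fell by 2.03 ± 0.25 in dKO and 0.72 ± 0.25 in WT, and Rgs4, a regulator of G protein signalling, by 1.96 ± 0.34 and 0.97 ± 0.34, with no called difference for either. As the mean of its probe sets the Trim9 value in dKO was -0.82. Dmkn and Abi3bp, a matrix-associated gene, had differences of -2.11 ± 0.45 and -1.83 ± 0.25.

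Cell cycle inhibitors, several of them Polycomb targets, moved upward in part. Of 7 cyclin-dependent kinase inhibitors, 3 rose (42.86%) and 1 fell (14.29%) in dKO, beside 16.9% and 17.6% of all genes. In WT 0 rose and 2 fell. Cdkn2a, which encodes p16 and p19ARF, read 1.02, 1.30 and 1.14 at 3 months and 2.42, 2.68 and 2.94 at 6 months. The 3-month dKO arrays already stood above WT, which read -1.5 to -0.88 then and -1.42 to -0.72 later. The Cdkn2a change was 1.54 ± 0.30 (adjusted p = 0.000678), its difference from WT of 1.56 ± 0.43 was not called (adjusted p = 0.0709), and after quantile normalization the change was 0.37 and not called. Cdkn1a, which encodes p21, rose by 1.0 ± 0.28 in dKO and fell by 1.10 ± 0.28 in WT, a called difference of 2.10 ± 0.40 (adjusted p = 0.00802). Without dKO 3-month replicate 3 the rise of Cdkn1a within dKO was not called. Cdkn2b, the neighbour of Cdkn2a, rose by 0.68 ± 0.16, and its WT change was -0.02 ± 0.16.

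Of 44 p53 target and cell death genes 13 rose (29.55%) and 8 fell (18.18%) in dKO, beside 16.9% and 17.6% of all genes. In WT 6 rose and 7 fell. Bid, a proapoptotic BH3 protein, rose by 1.0 ± 0.17, or 0.57 as the mean of its probe sets. Bcl2, a survival gene, fell by 0.75 ± 0.13, and its value of -0.09 with the probe set that varied most in WT was not called. Pmaip1, another BH3 gene, rose by 0.83 ± 0.27 against -0.66 ± 0.27 in WT, the single called difference (1.49 ± 0.38, adjusted p = 0.0458). That difference missed the threshold in 23 of 39 alternatives. The 13 rises became 5 to 8 without dKO 3-month replicate 1 or 3 or dKO 6-month replicate 3, and the 8 falls became 5 without dKO 3-month replicate 1.

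Of 12 PRC2 genes 3 fell and 1 rose in dKO, near the 17.6% and 16.9% of all genes, against 2 and 1 in WT, and 0 differences were called. Aebp2, an accessory subunit, changed by -0.87 ± 0.18, with 1 array at -1.61, but by 0.07 with the probe set that varied most in WT. Rbbp4, a histone-binding subunit, fell by 0.65 ± 0.15 in dKO, or 0.29 as the mean of its probe sets, and by 0.84 ± 0.15 in WT. Of 19 PRC1 genes 2 rose and 2 fell in dKO (10.53% each), below the shares of all genes.

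Of 20 homeostatic astrocyte markers 4 rose (20.0%) and 5 fell (25.0%) in dKO, near the 16.9% and 17.6% of all genes, with a median of -0.13. The 5 became 1 to 3 without any 1 dKO array at 3 months or dKO 6-month replicate 1, 3, 4 or 6. Aldoc, the brain aldolase, rose by 1.08 ± 0.12 in dKO (adjusted p = 2.30e-06) against -0.16 ± 0.12 in WT, and its difference of 1.24 ± 0.17 was called in all 39 alternatives, though the mean of its probe sets rose by only 0.61 in dKO. It read -0.08, -0.04 and 0.02 at 3 months and 0.78, 1.03 and 1.45 at 6 months, without overlap. Slc1a2, the main glutamate transporter, fell by 1.08 ± 0.39 in dKO and 1.26 ± 0.39 in WT. As the mean of its probe sets the Slc1a2 change in dKO was -0.31 and not called. The dKO call was also lost without any 1 of the 3 dKO arrays at 3 months or dKO 6-month replicate 3, 4, 5 or 6. Among 20 reactive astrocyte markers 4 rose (20.0%) and 1 fell (5.0%) in dKO. Serpina3n, a protease inhibitor, rose by 1.53 ± 0.25 against 0.02 ± 0.25 in WT, and Gfap by 0.58 ± 0.20 against 1.28 ± 0.20. The Serpina3n difference of 1.51 ± 0.35 was not called without WT 3-month replicates 2, 3 or 4, WT 6-month replicates 2 or 4, or dKO 3-month replicates 2 or 3. The Gfap rise was lost without dKO 3-month replicates 2 or 3 or dKO 6-month replicates 3, 5 or 6, with either marker covariate, with the replicate block, and as the mean of its probe sets (0.20). The 4 rises among reactive markers became 2 without dKO 3-month replicate 3.

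Of 20 homeostatic microglia markers 7 fell (35.0%) and 1 rose (5.0%) in dKO, beside 17.6% and 16.9% of all genes. In WT 1 fell and 2 rose, and 0 differences were called. Fcrls, a microglial Fc receptor-like gene, fell by 1.71 ± 0.44, with dKO arrays at 6 months from -3.13 to -0.30. The array medians of the list spread from -0.77 to 0.06 at 6 months and -0.02 to 0.16 at 3 months, so they overlap. The 7 falls became 1 to 4 when any of 12 single arrays was left out (WT 6-week replicates 1 to 3, WT 3-month 2 and 4, WT 6-month 3 and 4, dKO 3-month 1 and 2, dKO 6-month 3 to 5), and 0 when only the dKO arrays at both ages were fitted. Of 24 activated microglia markers 8 rose and 1 fell in dKO, against 11 and 0 in WT. The chemokines Ccl4 and Ccl3 rose by 0.64 ± 0.09 and 0.61 ± 0.15 in dKO, and by 0.45 ± 0.09 and 0.47 ± 0.15 in WT. The 8 rises became 5 without dKO 3-month replicate 3, and the 11 rises in WT 7 without WT 3-month replicate 2.

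Of 32 interferon-induced genes, 19 rose and 0 fell in WT, beside 10.4% and 11.8% of all genes. In dKO 8 rose (25.0%) and 4 fell (12.5%), beside 16.9% and 17.6%. Gbp3, an interferon-induced GTPase, fell by 0.68 ± 0.16 in dKO beside 0.42 ± 0.16 in WT, not called, a called difference of -1.11 ± 0.22 (adjusted p = 0.0120). Gbp2 fell by 0.76 ± 0.23 beside 0.60 ± 0.23 in WT, and these were the 2 called differences of the list. The Gbp2 difference missed the threshold in 18 of 39 alternatives, among them leaving out any 1 WT or dKO array at 3 months. Its fall in dKO was not called after quantile normalization or without dKO 3-month replicate 1 or 2. Without WT 6-month replicate 4 the 19 WT calls became 5, and without WT 3-month replicate 3 they became 8. The 4 falls in dKO became 2 without dKO 3-month replicate 1 or 2. Of 11 MHC class I and complement genes 5 rose in dKO and 6 in WT. H2-K1, a classical class I gene, rose by 0.45 ± 0.12 and 0.70 ± 0.12.

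Of 21 oligodendrocyte markers 3 fell (14.29%) and 1 rose (4.76%) in dKO, beside 17.6% and 16.9% of all genes. In WT 6 rose and 0 fell. Aspa and Fa2h, enzymes of mature myelinating cells, had uncalled values of -0.22 and 0.05 in dKO and rose by 1.08 and 0.89 in WT, the 2 called differences. The 6 rises in WT became 10 without dKO 6-month replicate 2. Of 24 endothelial and mural markers 8 fell in dKO and 3 in WT, and 8 became 5 without dKO 3-month replicate 2. Rgs5, a pericyte gene, fell by 1.33 ± 0.34 and 1.35 ± 0.34. Of 20 striatal interneuron markers 5 rose (25.0%) and 4 fell (20.0%) in dKO. Slc18a3, the vesicular acetylcholine transporter of cholinergic interneurons, fell by 1.10 ± 0.20 beside 0.52 ± 0.20 in WT, a difference of -1.62 ± 0.29 (adjusted p = 0.00411), while Chat, the enzyme that makes acetylcholine, had a value of 0.12 that was not called. Kit and Pthlh, expressed by other interneurons, fell by 0.58 and 0.87 and were the 2 further called differences. The Pthlh difference missed the threshold in 19 of 39 alternatives, among them leaving out any 1 dKO array at 3 months.

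Differences from WT were called for 2 of 46 BMP and TGF-beta genes, 3 of 45 Wnt genes and 1 of 20 retinoic acid genes, beside 0.73% higher and 0.889% lower over all genes. Of 46 BMP and TGF-beta genes 14 fell (30.43%) and 4 rose (8.7%) in dKO, beside 17.6% and 16.9% of all genes. The 4 became 1 to 2 without any 1 dKO array at 3 months or dKO 6-month replicate 4, 5 or 6. Inhba, an activin subunit, changed by -1.46 ± 0.14 against 0.15 ± 0.14 in WT, a difference of -1.61 ± 0.19 (adjusted p = 3.38e-05) that was not called with the probe set that varied most in WT. Acvrl1, a receptor of vessel cells, fell by 1.67 ± 0.23, and Fst, an activin antagonist, by 1.87 ± 0.19 in dKO and 1.44 ± 0.19 in WT. Of 45 Wnt pathway genes 9 fell (20.0%) and 7 rose (15.56%) in dKO, and the 7 became 11 without dKO 6-month replicate 2. Wnt2, a ligand, changed by -1.41 ± 0.16 against -0.28 ± 0.16 in WT, a difference of -1.12 ± 0.22 (adjusted p = 0.0109) that was not called without dKO 3-month replicate 2. Of 20 retinoic acid pathway genes 5 fell and 2 rose in dKO; Rxrg, a nuclear receptor of medium spiny neurons, fell by 1.05 ± 0.19 beside 0.05 ± 0.19 in WT.

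**Figure D5:**
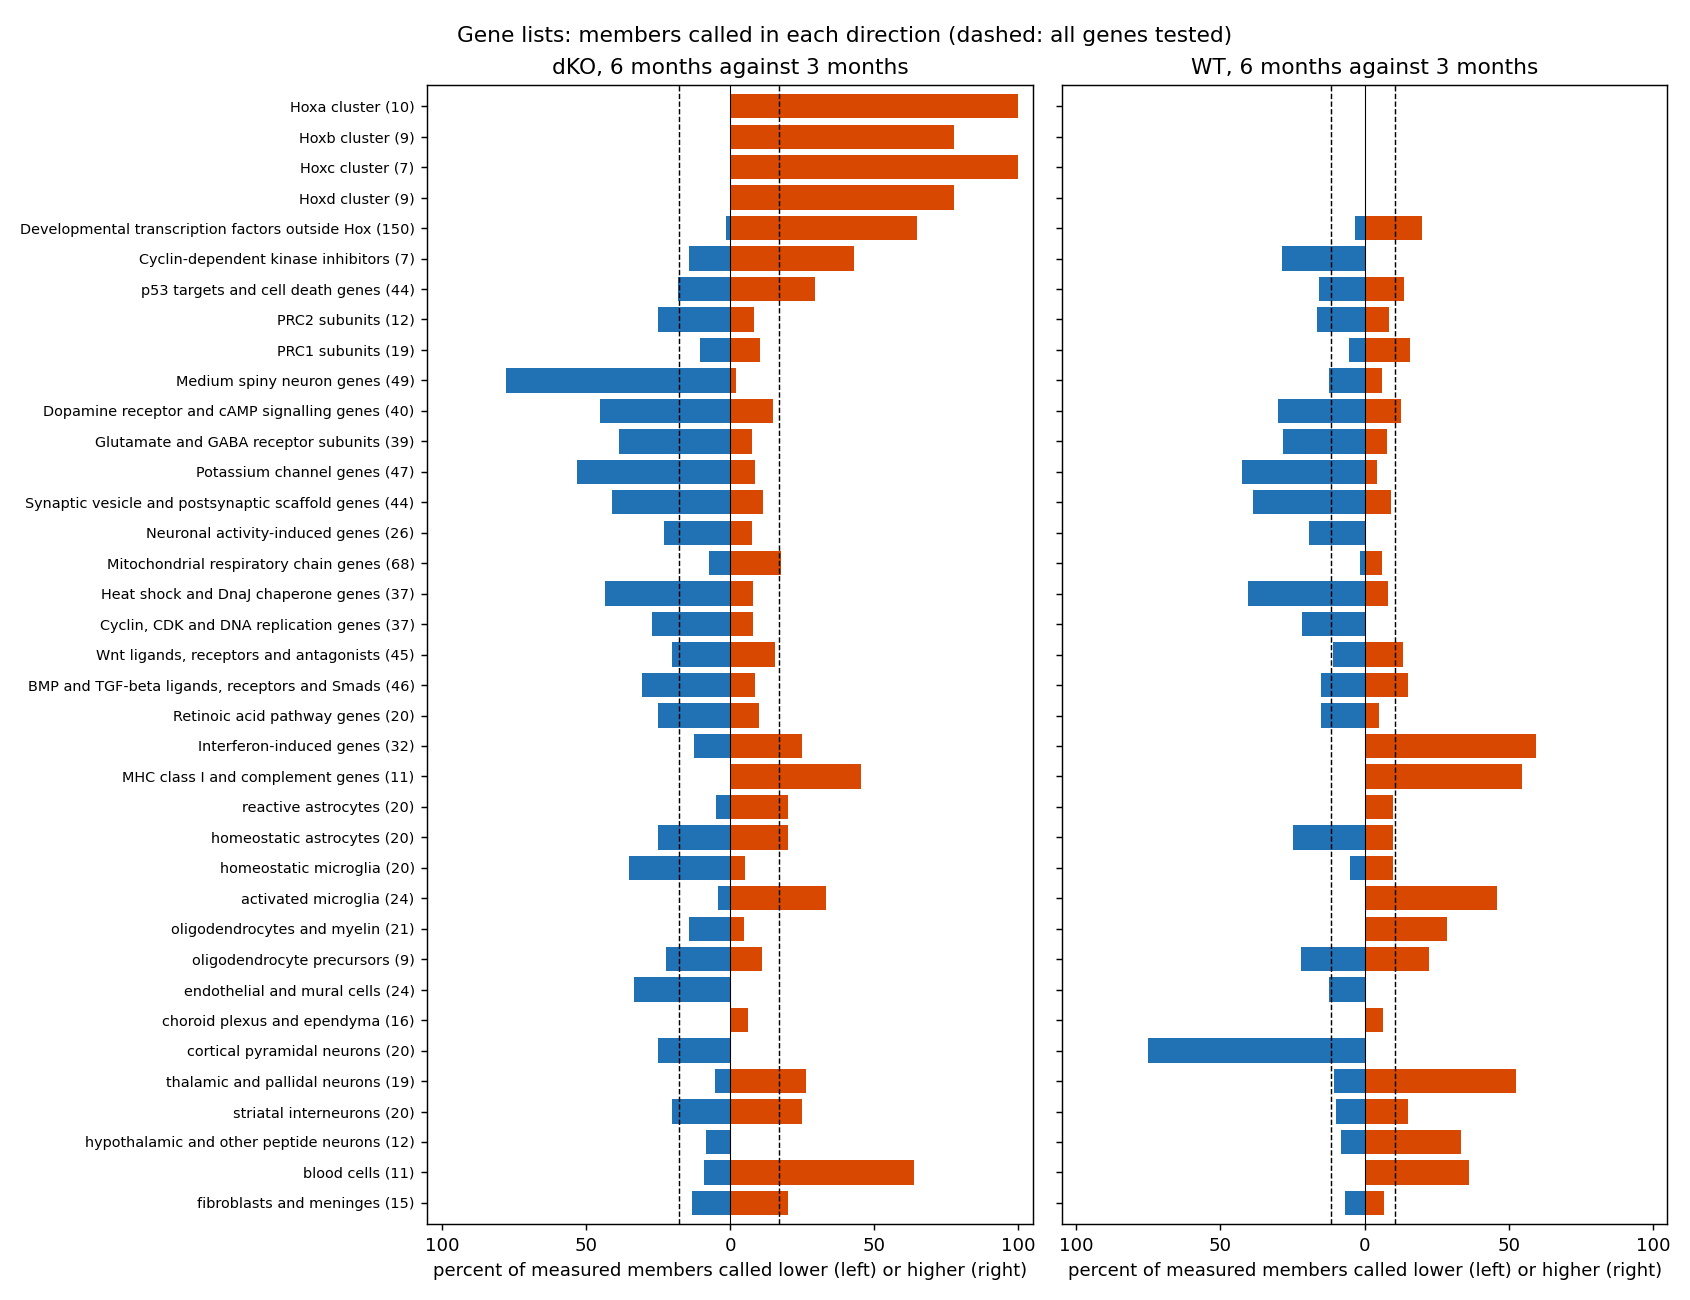
Percent of the measured members of each list (number in parentheses) called higher (orange, right) or lower (blue, left) from 3 to 6 months in dKO and in WT, with dashed lines at the percent of all genes. The Hox bars reach right in dKO and are absent in WT, the medium spiny neuron bar reaches left in dKO, and the cortical bar is longer in WT than in dKO.

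The difference from WT was called for 45 of the 158 genes named by the selection rule, and 14 of these were called in every one of 39 alternatives: Hoxd10, Hoxc10, Hoxa5, Hoxc8, Hoxa7, Hoxd9, Hoxd11, Slc6a5, Lbx1, Gpx6, Gask1b, Gkn3, Aldoc and Abi3bp. Without dKO 3-month replicate 2, 16 were not called, among them Hoxb2, Hoxb5, Hoxb13, Hoxc5, Skor1, Phex, Pmaip1, Adora2a, Wnt2, Acvrl1, Rxrg, Gbp2, Serpina3n, Pthlh and Dmkn. With the thalamic median as a covariate 24 were not called, among them Drd2, Adora2a, Pde7b, Actn2 and Cdkn1a. After quantile normalization 11 were not called. For 9 array measures (Xist, 4 Y-linked genes and 4 differences between 3′ and 5′ control probe sets) exact two-sided permutation tests over the 6 and 3 dKO arrays gave raw p from 0.167 to 0.952. The lowest p this design allows is 0.0238, or 0.214 adjusted over the 9 if 1 measure reaches it, so 1 measure alone could not have passed.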

How the data were processed

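Total RNA of striatal tissue was labelled as biotinylated cRNA and hybridised to 1 array per sample; not given in the sources used here were the array design and software. The deposited values are log2 intensities from RMA, per the submitters' processing notes. The deposited log2 table is centred for each probe set, so no level could be compared and no filter on dim probes was applied. A second deposited table repeats 21 of its columns with a largest difference of 0, and 2 columns that share a name there were not used. Probe sets with several symbols (1253) or none (5705) were left out. For the 9654 genes with several probe sets, the one with the largest SD over all 23 arrays was used, which favours larger changes; the design had asked for the highest mean, which centred values do not give. Of the symbols, 1160 were updated through the RefSeq table of GRCm38.p6.

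All 23 arrays entered 1 fit of 6 groups with limma 3.58.1 in R 4.3.3 (residual df 17, prior df 4.58), and p-values were adjusted by Benjamini-Hochberg over 20694 genes. A call is an adjusted p under 0.05. Counts of list members are descriptions, without a test of the list. For each WT count the shares over all genes were 10.4% higher and 11.8% lower. For each count of differences they were 0.73% higher and 0.889% lower. The members and lists were chosen with earlier results of these data known. Named genes are the 12 largest rises and falls in dKO among called genes with arrays that do not overlap, up to 4 called members per list (the 2 largest where fewer than 2 were called), the 5 largest differences each way, the 3 largest each way in WT, and Ezh1 and Ezh2; other genes in the text were chosen after their values were seen. The design text calls the samples biological replicates. No 2 arrays were duplicates (smallest median absolute difference 0.105). The number of arrays limits the precision. Same-numbered dKO arrays of the 2 ages had correlations of -0.10, -0.01 and -0.26 of their deviations from the group means. These are too few to tell whether replicate numbers mark a shared litter or batch. The alternatives were quantile normalization, other probe set rules, array weights, marker and Gapdh covariates, a replicate block, stricter thresholds, only the groups compared, and leaving out arrays; the thalamic covariate and the fit without 6-week arrays were chosen after seeing the data. The scripts were tested on simulated data. Figures were drawn with matplotlib 3.10.9. A few withheld genes are not reported here by name, though they enter the counts.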

Additional observations from a re-analysis of the deposited data

Results flagged for a closer look

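On 9 of the 158 named genes, 1 of the 6 dKO arrays at 6 months stood apart from the others by a gap above Dixon's 95% critical value for 6 samples; chance gives such a gap in about 1 in 20 groups. Replicate 2 read -0.69 for Tac2 (group median 1.77), 1.27 for Cdkn2b (0.75) and 4.71 for Kcne2, a potassium channel subunit of choroid plexus (0.07). Replicate 4 read -1.61 for Aebp2 (-0.57), 0.10 for Slc1a3, an astrocyte glutamate transporter (0.46), and -1.93 for Gpr34, a microglial receptor (-0.38). Replicate 6 read -1.07 for Ighm (-1.38) and 0.99 for Col3a1, a collagen of fibroblasts (-0.68), and replicate 3 read 2.72 for Hoxc5 (1.53).

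The change from 3 to 6 months differed between dKO and WT, by limma's test of the difference with Benjamini-Hochberg adjustment, for 151 genes that moved up and 184 that moved down in dKO relative to WT. Among the named genes 45 did so, and each value reported here is the dKO change minus the WT change in log2 units. Of Hox genes these were Hoxd10 (4.76), Hoxa9 (4.63), Hoxc10 (3.76), Hoxa5 (3.14), Hoxc8 (3.48), Hoxa10 (2.21), Hoxa7 (1.62), Hoxb5 (1.41), Hoxb3 (1.27), Hoxb2 (0.96), Hoxb13 (1.14), Hoxc5 (1.5), Hoxd8 (2.41), Hoxd9 (2.43) and Hoxd11 (1.73). Of other developmental regulators they were Tbx20 (3.55), Lbx1 (3.07), Hand2 (2.85) and Skor1 (1.84). Other genes with a positive difference were Slc6a5 (3.24), Cdkn1a (2.10), Pmaip1 (1.49), Serpina3n (1.51) and Aldoc (1.24). Among medium spiny neuron genes the differences were negative for Gpx6 (-2.69), Pde7b (-1.74), Actn2 (-1.60), Drd2 (-1.81), Adora2a (-1.63), Rxrg (-1.10) and Ido1 (-1.94). The remaining negative differences were those of Phex (-1.30), Gask1b (-1.80), Gkn3 (-2.21), Wnt2 (-1.12), Acvrl1 (-1.33), Inhba (-1.61), Gbp2 (-1.36), Gbp3 (-1.11), Slc18a3 (-1.62), Pthlh (-0.88), Dmkn (-2.11) and Abi3bp (-1.83).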

How the results depend on the processing

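The dKO counts of higher and lower genes were 2345 to 3976 and 2741 to 3913 when 1 array was left out. With only the groups compared 2111 genes were higher, at an adjusted p under 0.01 there were 1762 and 2295, at 1.5-fold or more 750 and 1465, and over all probe sets 6038 were lower. WT counts were 1313 to 2971 and 1618 to 2818 without 1 array, 4468 and 4027 with array weights, 755 and 1171 at 0.01, 421 and 892 at 1.5-fold, 510 and 848 with the cortical and 805 and 909 with the thalamic covariate, and 4104 lower over all probe sets. The differences between genotypes were 76 to 268 higher and 42 to 412 lower without 1 array, 457 and 697 with array weights, 60 and 38 at 0.01, and 66 and 20 with the thalamic covariate. Lower differences were 119 with only the groups compared, 119 without the 6-week arrays and 95 with the cortical covariate. With the replicate block dKO counts were 2379 and 2712 and differences 121 and 112.

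Signs turned for values near 0: Ezh1 was 0.32 after quantile normalization, 0.011 as the mean of probe sets, 0.042 with the Gapdh covariate, 0.020 with the replicate block and -0.17 to 0.16 without 1 array. Pmch was 0.028 with array weights, 0.15 with the replicate block and -0.34 to 0.089 without 1 array. Cdkn2c was 0.0087 as the mean of probe sets. With the probe set that varied most in WT, Aebp2 was 0.070, Cycs 0.18 and Tapbp -0.18. Kcne2 was -0.32 with the cortical and -0.045 with the thalamic covariate. The causes were not tested. Of 148 dKO calls of genes reported by name, 91 held in all 39 alternatives.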

Other observations

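Of 37 cyclin, CDK and DNA replication genes 10 fell (27.03%) and 3 rose (8.1%) in dKO from 3 to 6 months, beside 17.6% and 16.9% of all genes. In WT 8 fell and 0 rose, with 0 called differences. Ccnd2, a D-type cyclin, fell by 1.44 ± 0.21 in dKO and 0.92 ± 0.21 in WT. The proliferation markers Mki67 and Top2a fell by 1.24 ± 0.22 and 1.16 ± 0.21 in dKO, and their WT values of -0.53 ± 0.22 and -0.46 ± 0.21 were not called. As the mean of its probe sets the Top2a value in dKO was -0.46. The 8 falls in WT became 5 without WT 3-month replicate 2 or 4 or WT 6-month replicate 2, 3 or 4. Of 37 heat shock and DnaJ chaperone genes 16 fell in dKO and 15 in WT, and the 16 became 10 without dKO 3-month replicate 3. Hsph1, an HSP110 chaperone, fell by 1.13 ± 0.23 in dKO beside -0.57 ± 0.23 in WT, which was not called.

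Of 26 neuronal activity-induced genes 6 fell (23.08%) and 2 rose (7.7%) in dKO, beside 17.6% and 16.9% of all genes. In WT 5 fell and 0 rose. Homer1, a postsynaptic scaffold with an activity-induced form, fell by 1.80 ± 0.19 and 1.08 ± 0.19. Of 11 blood cell markers 7 rose and 1 fell in dKO, and 4 rose and 0 fell in WT. S100a8, a neutrophil gene, rose by 1.15 ± 0.28 in dKO beside 0.63 ± 0.28 in WT, not called, and Cd8a, a T cell gene, by 0.74 ± 0.13 and 0.49 ± 0.13. As the mean of its probe sets the Cd8a value in dKO was 0.28. Alas2, the haem synthesis enzyme of red cell precursors, fell by 0.88 ± 0.21 in dKO, with a WT value of -0.01 ± 0.21. None of these genes had a called difference between genotypes in limma's test.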
